A study of Mus musculus with 3 samples.

Results

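The genes described here govern where thymocytes move. They were followed in single cells from the first DN stages to cells with RNA of the δ or the α receptor chain. The 7 members were the chemokine receptors Ccr9, Cxcr4, Ccr7, Cxcr3 and Cxcr6, the sphingosine 1-phosphate receptor S1pr1, and Klf2, a transcription factor. The genes were chosen by name for their roles, when earlier results of these data were known. They were 7 of the 28692 genes listed for the first and second run and of the 32285 listed for the third. All 7 passed the filter on low counts that left 11234 genes. Ccr7, S1pr1, Cxcr3 and Cxcr6 had low levels in the DN gates and could pass it through the gates where they were high.

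Thymocytes of C57BL/6 mice, labelled as week 6, were pooled from 4 thymi for each of 3 runs, and each run gave 1 10x library. The first run held total double negative (DN) and TCRγδ+ thymocytes (5516 cells kept), the second held DN1 and DN2 thymocytes sorted without TCRγδ+ cells (8852 cells), and the third mixed separate sorts of DN1 and DN2, of DN3 and of TCRγδ+ thymocytes (7511 cells). All sorts excluded cells with CD4, CD8, B220, CD11b, CD11c, NK1.1 or TCRβ on their surface, and the mice carried no engineered allele and received no treatment that the labels name. Since each sort was made a single time, no library replicates another. A p-value sets a difference between gates against a spread among runs of different sorts. That spread was estimated for each gene over all gates together and moderated across genes, and is not that of the named difference alone.

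Progenitors enter the thymus through vessels near the border of the medulla and move outward through the cortex as they pass from DN1 to DN3. In the prevailing model γδ T cells branch off during DN2 and DN3, and the study proposes that some arise straight from DN1 cells. CCR9 and CCR7 bind CCL25 and CCL19 or CCL21 made by thymic stroma, and CXCR4 binds CXCL12 of the cortex. KLF2 switches on S1pr1 in mature thymocytes, and S1PR1 leads them into the blood. CXCR3 and CXCR6 are receptors of innate-like and effector T cells for CXCL9 to CXCL11 and for CXCL16.

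Cells were gated on the UMIs (unique molecular identifiers, 1 per RNA molecule counted) of stage genes, none of which is a member. The DN1 gate needed Kit and a progenitor gene (Cd34, Flt3 or Mef2c) without Il2ra, Cpa3, Ptcra, Rag1 or Rag2. Il2ra with Kit or Cpa3 marked DN2, and Ptcra, Rag1 or Rag2 divided DN2b, which has any of them, from DN2a. DN3 had Il2ra, Ptcra and Rag1 or Rag2 without Kit, Cpa3 or Cd8 genes, and DN4 had Ptcra and Cd8a or Cd8b1 without Il2ra, Kit and Cpa3. The Trdc and Trac gates needed at least 3 UMIs of the constant gene of the δ or the α chain, and more than of the other. Their cells had no UMI of Il2ra, Kit, Cpa3, Ptcra, Rag1, Rag2 or Cd8b1, and were split by Cd24a, which is lost as thymocytes mature. The split depends on depth. With cells thinned to 2000 UMIs before gating, the Trdc Cd24a-negative gate held 148, 321 and 373 cells, against 83, 274 and 273 without thinning. B and myeloid gates, applied before the others, took cells with a UMI of at least 3 B cell genes or at least 3 myeloid genes. With the B and myeloid gates counted, the gates took 2052, 5348 and 4982 cells of the first, the second and the third run, or 37.2%, 60.4% and 66.3%.

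Some gates stood apart from the labels. The DN1 gate held 0, 18 and 29 cells and the DN4 gate 618, 8 and 13 cells in the first, the second and the third run, so that neither could be tested. The second run, although sorted without TCRγδ+ cells, held 476 cells of the Trdc gate. Although TCRβ+ cells were excluded, the second and the third run held 1640 and 802 cells of the Trac gate against 11 in the first. The second run was also sorted for DN1 and DN2 cells, yet 447 of its cells met the DN3 gate and entered the comparisons with DN3. A summed level of 5 genes of mature lymphocytes (Il2rb, Nkg7, Klrd1, Ccl5 and Ly6c2) was 4430 and 2331 CPM (counts per 1e6 UMIs) in the Trac Cd24a-negative gate and between 24.97 and 478 CPM in the DN2a to DN4 gates. It was 449, 1193 and 725 CPM in the Trdc Cd24a-negative gate of the first, the second and the third run. In the first run that was near the 416 CPM of DN2a. The γδ genes (Sox13, Id3, Etv5, Blk and Maf) summed to between 405 and 1316 CPM in the Trdc gates between 349 and 473 CPM in the Trac gates of the second and the third run, and between 64.8 and 181 CPM in the DN2a to DN4 gates. Of the stage genes outside the gates, those of DN1 divided DN2a, DN2b and DN3, and those of DN3 did not. Hhex, Lmo2, Hoxa9, Mycn and Lyl1 summed to 76.1, 46.4 and 15.1 CPM in these gates of the first run. They were at 119, 79.0 and 27.6 CPM in the second, and 73.5, 40.1 and 14.7 CPM in the third. Notch3, Dntt, Cd3e, Hes1 and Trbc1 summed to 4231, 3774 and 3722 CPM in these gates of the first run, 4297, 4307 and 4567 CPM in the second, and 3719, 3788 and 3722 CPM in the third. B cells were found in the third run (410 cells) and served as a cell type outside the T lineage. Without the highest 8% of doublet scores, 340 cells remained in the B gate. Notch3, Dntt, Cd3e, Hes1 and Trbc1 summed to 648 CPM in the B gate, and the part of doublets in its levels was not tested.

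Ccr9 and Cxcr6 lie beside each other, which makes the sequences before their starts worth showing. On GRCm38, Ccr9 spans chr9:123678439-123784330 and Cxcr6 spans chr9:123806475-123811760, both on the plus strand and 22144 bases apart. Cxcr6 lies within Fyco1, which is read from the opposite strand, and the start of the longest Ccr9 transcript overlaps the noncoding RNA gene Gm17200 on the same strand. The sequences below precede the RefSeq starts (GRCm38.p6), without the bases that GENCODE M21 counts as exon, and cover chr9:123766961-123767168 for Ccr9, which lies between exons of its longer transcripts, and chr9:123806227-123806474 for Cxcr6. Capitals mark CACCC, a core of KLF sites, in Ccr9, and ACCACA, the other strand of the RUNX core TGTGGT, in Cxcr6.

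Ccr9: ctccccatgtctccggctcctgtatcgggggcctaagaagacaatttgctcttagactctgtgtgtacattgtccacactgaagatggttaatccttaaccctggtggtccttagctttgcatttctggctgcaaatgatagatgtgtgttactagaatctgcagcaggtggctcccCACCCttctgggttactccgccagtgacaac

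Cxcr6: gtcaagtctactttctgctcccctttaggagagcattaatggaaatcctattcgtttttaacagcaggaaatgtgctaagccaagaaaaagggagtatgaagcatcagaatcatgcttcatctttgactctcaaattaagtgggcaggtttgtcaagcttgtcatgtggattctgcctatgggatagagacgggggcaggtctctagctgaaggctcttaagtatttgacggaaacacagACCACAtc

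Both strands of the 250 bases before the start were searched for these cores and for the T-box core GGTGTG, of which no match overlaps another. Of 32851 mouse promoters of that length, 52.0% held CACCC, 14.05% held TGTGGT and 16.3% held GGTGTG. The table gave 5 of the 7 members (Ccr9, Cxcr4, Klf2, Cxcr3 and Cxcr6). CACCC stood once before each of Ccr9, Cxcr4 and Klf2, TGTGGT once before each of Cxcr3 and Cxcr6, and GGTGTG once before Ccr9, in the part not shown. These matches are letters in a window and were not tested as sites.

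Of the other members, Cxcr4 lies at chr1:128588199-128592293, Ccr7 at chr11:99144196-99155077, S1pr1 at chr3:115710433-115715072 and Cxcr3 at chrX:101731535-101734269, all on the minus strand. Klf2 lies on the plus strand at chr8:72319033-72321656. A level is given below as CPM, the UMIs of a gene scaled to the total UMIs of all cells of a gate in a run, with its exact Poisson 95% interval, which covers counting error only. UMIs count the 3′ ends of transcripts and were not scaled by length, so levels are compared between gates and not between genes.

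**Figure D1:**
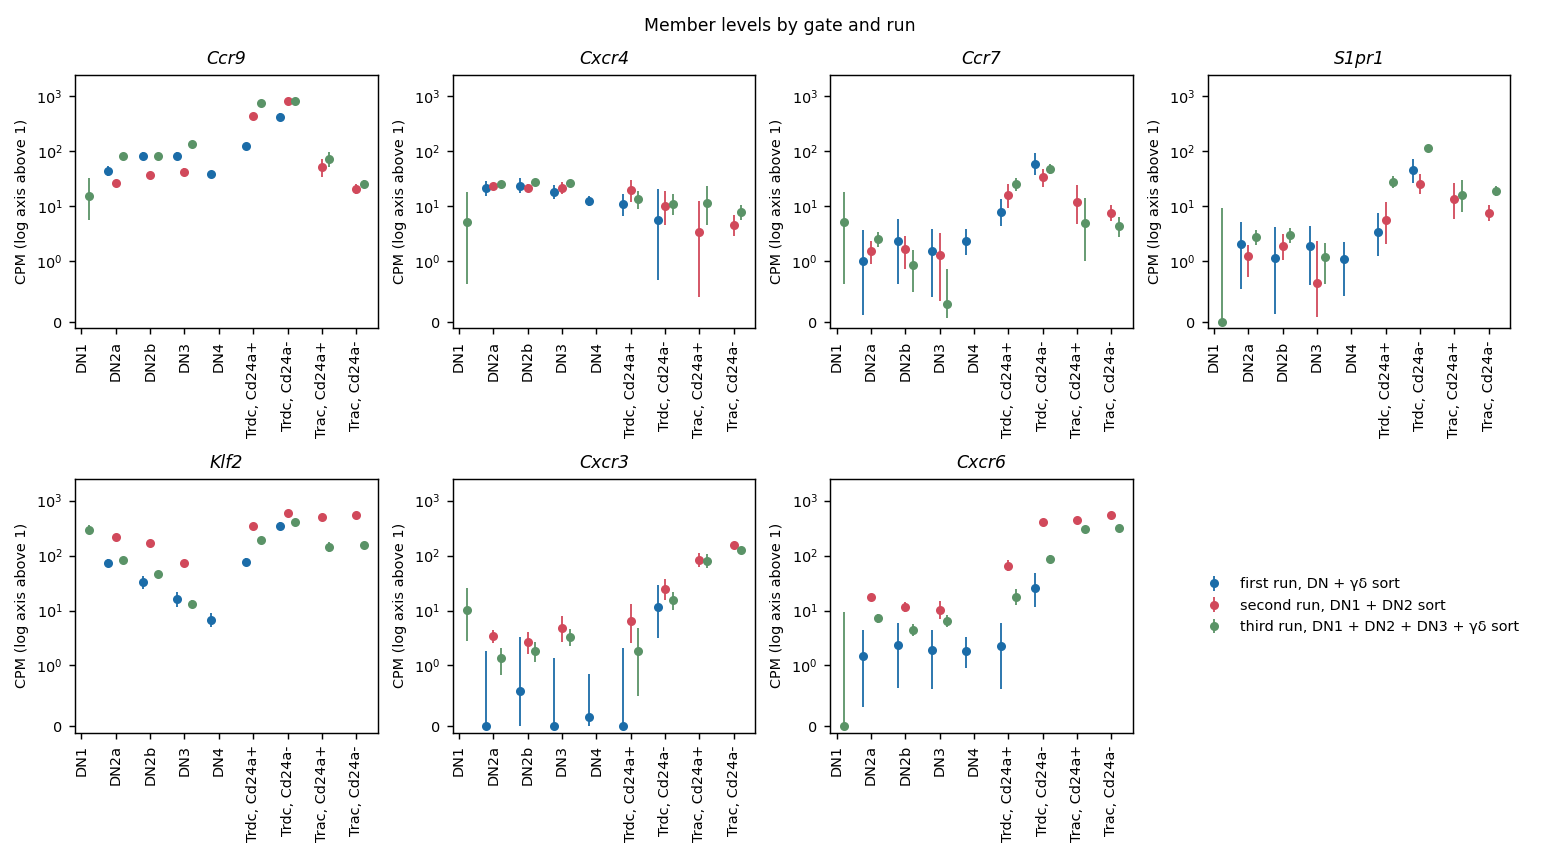
Levels of the 7 members (CPM, log axis above 1) in each gate with at least 20 cells, with exact Poisson 95% intervals. Each point is 1 library and is colored by run. Klf2 is lower in each later gate from DN2a to DN3 in every run, Ccr9 is highest in the Trdc gates, and Cxcr3 and Cxcr6 are highest in the Trac gates.

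Summed over all cells of a gate, Klf2 was lower in each later gate from DN2a to DN3 in every run. The order did not hold among resting cells of the first run, as given below. In the DN1 gate, it stood at 296 CPM (95% interval 244 to 355) in the third run, in 29 cells. Other lineages moved with that level, since Cd79a, Ms4a1, Cd74 and Lyz2 summed to 668 CPM and the mature lymphocyte genes to 1094 CPM there, against 40.7 and 370 CPM in DN2a of that run, and Klf2 itself was at 550 CPM in its B cells, and their part was not tested. In DN2a, Klf2 was at 74.1, 218 and 84.8 CPM in the first, the second and the third run, in DN2b at 33.0, 169 and 46.1 CPM, and in DN3 at 15.9, 74.6 and 13.1 CPM. Within each run the 3 intervals did not overlap, and the DN4 gate of the first run was lower again, at 6.78 CPM (4.93 to 9.11). The second run was above the first and the third in every gate from DN2a to DN3, so that its DN3 level lay near the DN2a levels of the others. The DN3 gate of the second run came from a sort of DN1 and DN2 cells, and the part of the sort was not tested. The mature lymphocyte genes also fell over DN2a, DN2b and DN3, at 416, 202 and 151 CPM in the first run. They were at 478, 366 and 256 CPM in the second run and 370, 250 and 191 CPM in the third. Their part in the Klf2 levels was not tested.

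Between DN2a and DN2b, 0 of the 7 members changed by edgeR's quasi-likelihood test with Benjamini-Hochberg adjustment, where 0.401% of all genes tested were called. At an unadjusted p under 0.05 there was 1 member, Klf2, with a log2 fold change of -0.73 ± 0.26 (SE) and an adjusted p of 0.489, and DESeq2 also called 0. With no filter on low counts, Klf2 was called, at an adjusted p of 0.000116. Between DN2b and DN3, 1 of 7 was called, against 4.27% of all genes. It was Klf2, which was lower in DN3 by a log2 fold change of -1.37 ± 0.29 (adjusted p = 0.00786, lower in 3 of 3 runs), and it was not called without the third run, where the log2 fold change was -1.13 (adjusted p = 0.162), nor without the block for the run (-1.27, adjusted p = 1).

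**Figure D2:**
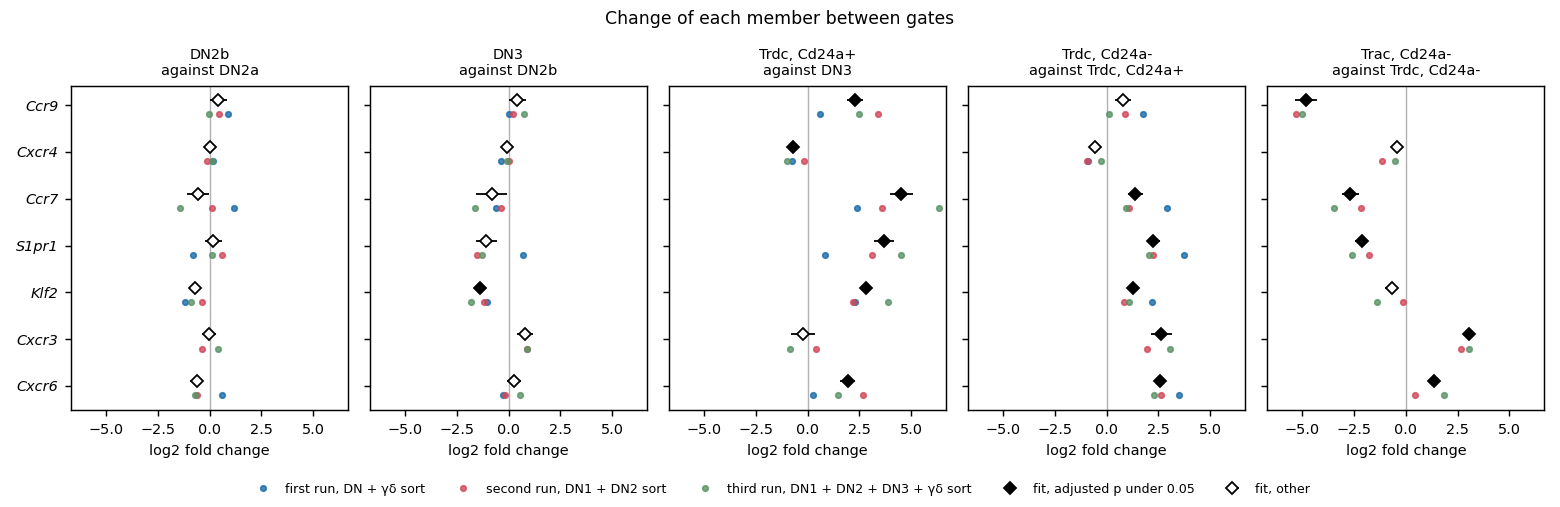
Log2 fold change of each member between gates. Diamonds give the fitted value with its standard error and are filled where the adjusted p is under 0.05, and dots give the log2 ratio of CPM in each run with UMIs in both gates. No diamond is filled for DN2b against DN2a, 1 for DN3 against DN2b, 6 for Trdc Cd24a-positive against DN3, and 5 for each of the other comparisons.

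Ccr9, the receptor for CCL25, was present from DN2a on without a called change among DN2a, DN2b and DN3. In DN2a it was at 44.4, 26.4 and 83.7 CPM in the first, the second and the third run, in DN2b at 82.3, 36.4 and 81.9 CPM, and in DN3 at 83.6, 41.8 and 136 CPM. The DN2a and DN2b intervals overlapped in the third run but not in the other two, and those of DN2b and DN3 overlapped in the first and the second run but not in the third. In DN4 of the first run, which was not tested, Ccr9 was lower, at 38.1 CPM (33.5 to 43.1) against 83.6 CPM (72.9 to 95.4) in DN3. In DN1 of the third run it was at 15.3 CPM (5.62 to 33.3), below the 42.8 CPM of the B cells of that run. Free RNA was not measured, and its part in this level was not tested. The log2 fold changes were 0.41 ± 0.41 for DN2b against DN2a (adjusted p = 1) and 0.42 ± 0.40 for DN3 against DN2b (adjusted p = 0.689).

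Cxcr4, the receptor for CXCL12, was flat over DN2a, DN2b and DN3 within counting error. The 9 levels of these gates ran from 18.5 to 28.1 CPM over the 3 runs, and the intervals of the 3 gates overlapped within each run. DN4 of the first run was lower than DN2b, at 12.5 CPM (9.92 to 15.5) against 23.8 CPM (17.1 to 32.3). Its interval overlapped those of DN2a, at 21.2 CPM (15.3 to 28.6), and of DN3, at 18.5 CPM (13.7 to 24.5). The log2 fold changes were 0.04 ± 0.14 for DN2b against DN2a and -0.09 ± 0.15 for DN3 against DN2b, which are the smallest standard errors of the 7 members in these comparisons.

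The other 4 members had low levels in the DN gates. S1pr1 lay between 0.649 and 2.97 CPM and Ccr7 between 0.301 and 2.52 CPM in DN2a, DN2b and DN3. Cxcr3 lay between 0 and 4.87 CPM, with no UMI in DN2a and DN3 of the first run, which allows up to 1.86 and 1.40 CPM. Cxcr6 lay between 1.51 and 17.7 CPM, and its highest DN level was in the second run, whose Trac Cd24a-negative gate stood at 554 CPM. In the third run the DN levels of Cxcr6, 4.42 to 7.24 CPM, were below the 18.0 CPM of its B cells. Whether they are background was not tested. None of these 4 was called between the DN gates.

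From DN3 to the Trdc Cd24a-positive gate, 6 of 7 members changed, against 16.4% of all genes. Cxcr4 fell and the other 5 rose. The comparison sets the DN3 gate beside the Trdc gate that still has Cd24a. Where γδ cells branch off was not tested, and the comparison does not isolate the branch. Without the third run, 3 members were called, and without the block for the run also 3.

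Ccr7, which leads thymocytes to the medulla, was at 7.99, 15.8 and 24.9 CPM in the Trdc Cd24a-positive gate and at 1.51, 1.30 and 0.301 CPM in DN3 of the first, the second and the third run. The groups of 3 levels did not overlap, and the log2 fold change was 4.52 ± 0.56 (adjusted p = 1.2e-05). DN3 of the third run held 3 UMIs of Ccr7, and the value was 2.96 without that run (adjusted p = 0.0158) and 5.21 without the first (adjusted p = 1.05e-05). S1pr1, the egress receptor, was at 3.42, 5.57 and 27.7 CPM against 1.89, 0.649 and 1.20 CPM, and the log2 fold change was 3.70 ± 0.48 (adjusted p = 1.76e-05). It was highest in the third run, where alone the intervals were apart, and without that run it was 1.74 (adjusted p = 0.295).

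Klf2 was at 77.6, 343 and 192 CPM in the Trdc Cd24a-positive gate against the DN3 levels above, a log2 fold change of 2.82 ± 0.29 (adjusted p = 1.81e-06). It was higher in each run, although DN3 of the second run lay near the Trdc level of the first. Without the third run it was 2.20 (adjusted p = 0.00167), and without the block for the run its adjusted p was 0.217.

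Ccr9 was at 127, 446 and 772 CPM in the Trdc Cd24a-positive gate and higher than in DN3 in each run, by a log2 fold change of 2.28 ± 0.40 (adjusted p = 0.00043). The first run differed least, and without the third run the value was 2.16 (adjusted p = 0.0704). Cxcr6 was at 2.28, 65.9 and 18.0 CPM in the Trdc Cd24a-positive gate against 1.89, 10.4 and 6.51 CPM in DN3. Its log2 fold change was 1.93 ± 0.37 (adjusted p = 0.000871), the intervals overlapped in the first run, and the level of the Trdc gate in the third run was that of its B cells (18.0 CPM). With cells thinned to 2000 UMIs before gating, Cxcr6 was not called, at 0.91 (adjusted p = 0.629), and without the second run it was 1.26 (adjusted p = 0.0261).

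Cxcr4 was at 10.8, 19.5 and 13.4 CPM in the Trdc Cd24a-positive gate against 18.5, 21.7 and 27.0 CPM in DN3. It was lower in each run, by a log2 fold change of -0.70 ± 0.20 (adjusted p = 0.0217), although the intervals overlapped in the first and the second run. Without the first run its adjusted p was 0.0612 and without the third 0.518, and it was also not called in thinned cells (0.582), without the block (0.529) or with 2 Cd24a UMIs required (0.0513). Cxcr3 did not pass the test, at -0.23 ± 0.58 (adjusted p = 0.861), with 0, 6.50 and 1.85 CPM in the Trdc gate.

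In the Trdc Cd24a-negative gate, 5 of 7 members were called higher than in the Cd24a-positive gate, against 15.9% of all genes, and none lower. Its median UMIs per cell were 3328, 2843.5 and 6251 in the 3 runs, against 6014.5, 3990.5 and 7591. Mki67, Top2a, Cdk1, Birc5 and Hmgb2 summed to 2449, 601 and 1097 CPM, against 3293, 2761 and 1994 CPM. The part of depth and cycling was not tested. S1pr1 was at 45.5, 25.8 and 114 CPM in the Trdc Cd24a-negative gate of the first, the second and the third run, each above the Trdc Cd24a-positive gate of its run with no overlap of intervals. Its log2 fold change was 2.25 ± 0.31 (adjusted p = 0.000254), and without the third run 2.99 (adjusted p = 0.0108). Klf2 was at 350, 603 and 408 CPM, a log2 fold change of 1.28 ± 0.27 (adjusted p = 0.00369), and was higher in 3 of 3 runs. The Cd24a-negative levels of Klf2 were all above the Cd24a-positive ones, by a narrow gap between the first run (350) and the second (343).

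Ccr7 was at 59.7, 33.7 and 47.8 CPM and rose by a log2 fold change of 1.38 ± 0.37 (adjusted p = 0.0165). It was higher in 3 of 3 runs, but was not called without the first run (1.005, adjusted p = 0.0946) or without the second (1.51, adjusted p = 0.0822). Cxcr6 was at 25.6, 406.5 and 86.5 CPM, a log2 fold change of 2.56 ± 0.30 (adjusted p = 4.63e-05), with non-overlapping intervals in each run. The Cxcr6 level of the second run, which was sorted without TCRγδ+ cells, was the highest of the 3.

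Cxcr3 was at 11.4, 24.7 and 15.3 CPM in the Trdc Cd24a-negative gate, in which it had 4 UMIs in the first run. Its log2 fold change was 2.64 ± 0.51 (adjusted p = 0.00201), and without the second run it was 3.40 (adjusted p = 0.0349), without the third 2.42 (adjusted p = 0.0686) and in thinned cells 2.1 (adjusted p = 0.153). In the third run the level was below the 23.6 CPM of the B cells. Without the block for the run, none of the 5 members was called in this comparison, with adjusted p between 0.178 and 0.680.

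Ccr9 and Cxcr4 did not pass the test here. Ccr9 was at 424, 823 and 828 CPM in the Trdc Cd24a-negative gate, its highest level among the gates in each run, although its interval overlapped that of the Cd24a-positive gate in the third run, and the log2 fold change from the Cd24a-positive gate was 0.79 ± 0.38 (adjusted p = 0.171). The ratio differed between runs, since the Cd24a-positive level was lowest in the first run and highest in the third while the Cd24a-negative level was nearly equal in the second and the third. Cxcr4 was at 5.69, 10.1 and 11.2 CPM, a log2 fold change of -0.56 ± 0.30 (adjusted p = 0.221).

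The Trac and the Trdc gate, both without a Cd24a UMI, were compared in the second and the third run. When either is left out, the Trac gate has 1 sum, and the p-values take the spread from the other sums. The Trdc gate also has the sum of the first run, which enters the fit. Of the 7 members, 3 were lower and 2 were higher in the Trac gate, against 17.1% of all genes called. Ccr9 showed the largest difference of the 7, at 20.5 CPM (16.66 to 25.003) and 25.3 CPM (21.2 to 29.8) in the Trac gate against 823 and 828 CPM in the Trdc gate. The log2 fold change was -4.84 ± 0.54 (adjusted p = 2.75e-06), and in the third run the Trac level was below that of the B cells.

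Ccr7 was at 7.54 and 4.33 CPM in the Trac Cd24a-negative gate, lower by a log2 fold change of -2.69 ± 0.41 (adjusted p = 0.000112), and -3.40 without the second run (adjusted p = 0.00257). S1pr1 was at 7.54 and 18.9 CPM, a log2 fold change of -2.14 ± 0.30 (adjusted p = 4.08e-05), and without the third run it was -1.67 (adjusted p = 0.0586). Both receptors were thus lower in each of the 2 runs. Klf2 did not pass the test, at 540 CPM and 155 CPM in these runs against 603 and 408 CPM in the Trdc gate, a log2 fold change of -0.69 ± 0.29 (adjusted p = 0.116). Its intervals overlapped in the second run alone, and it was called without that run (-1.24, adjusted p = 0.026), with 6 Trac or Trdc UMIs required (-0.97, adjusted p = 0.0244) and with no filter on low counts (adjusted p = 0.000202).

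Cxcr3, the receptor for interferon-induced chemokines, was at 155 and 128 CPM in the Trac Cd24a-negative gate against 24.7 and 15.3 CPM in the Trdc gate. The log2 fold change was 3.05 ± 0.26 (adjusted p = 1.34e-07), and the ranges did not overlap. Cxcr6, the receptor for CXCL16, was at 554 and 316 CPM against 406.5 and 86.5 CPM, and higher by a log2 fold change of 1.35 ± 0.25 (adjusted p = 0.000713). The gap was wider in the third run, and without it the value was 0.75 (adjusted p = 0.163), against 2.08 without the second (adjusted p = 0.000199). Cxcr4 was at 4.61 and 7.76 CPM, -0.42 ± 0.31 (adjusted p = 0.393). Without the block for the run, 2 members were called in this comparison, and scaling by total counts moved the median log2 fold change of all genes from 0.07 to -0.21, which the values of the 5 called members exceed in size.

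The levels of a gate are sums over cells, in which a change in the share of cells with a gene and a change in the RNA per cell cannot be told apart. Shares of cells with a UMI were therefore taken after thinning each cell to 2000 UMIs. A Ccr9 UMI was found in 16.9% of DN3 cells of the first run and 10.7% of the second. Among Trdc Cd24a-positive cells the shares were 20.3% and 38.6%, and in the first run the interval overlapped that of DN3. Among Trdc Cd24a-negative cells they were 40.96% and 50.4%, with an interval apart from that of the Cd24a-positive cells in the first run only. In the third run, a Ccr9 UMI was found in 25.4% of DN3 cells (22.8 to 28.1), 64.1% of Trdc Cd24a-positive cells (57.4 to 70.4) and 59.0% of Trdc Cd24a-negative cells (52.8 to 64.9). In the same run, 2.47% of Trac Cd24a-negative cells (1.47 to 3.87) and 3.69% of B cells (2.08 to 6.01) had a Ccr9 UMI. The share in the Trac gate was thus not above that of the B cells.

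A Cxcr6 UMI was found in 55.3% of Trac Cd24a-negative cells of the second run (52.8 to 57.9) and 41.4% of the third (37.8 to 45.0), against 1.47% of B cells (0.543 to 3.18). In the Trdc Cd24a-negative gate the shares were 3.61%, 31.4% and 11.2% in the first, the second and the third run. A Cxcr3 UMI was found in 28.1% and 26.0% of Trac Cd24a-negative cells and in 4.67% of B cells. A Klf2 UMI was found in 58.5% of B cells, so that for Klf2 the B cells are no background.

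Within the Trdc Cd24a-negative gate, Ccr9 and Cxcr6 tended to be in different cells. In the second run, 23.3% of cells with a Cxcr6 UMI (14.8 to 33.6, 86 cells) and 62.8% of those without (55.4 to 69.7, 188 cells) had a Ccr9 UMI. In the third run, the shares were 13.3% (3.76 to 30.7, 30 cells) and 64.7% (58.3 to 70.8, 238 cells). These were the only 2 of the 7 gate and run combinations, with at least 20 cells of each kind, in which the intervals did not overlap. The first run had too few cells with Cxcr6 for this comparison, and the pair was chosen after the shares of all pairs had been seen.

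**Figure D3:**
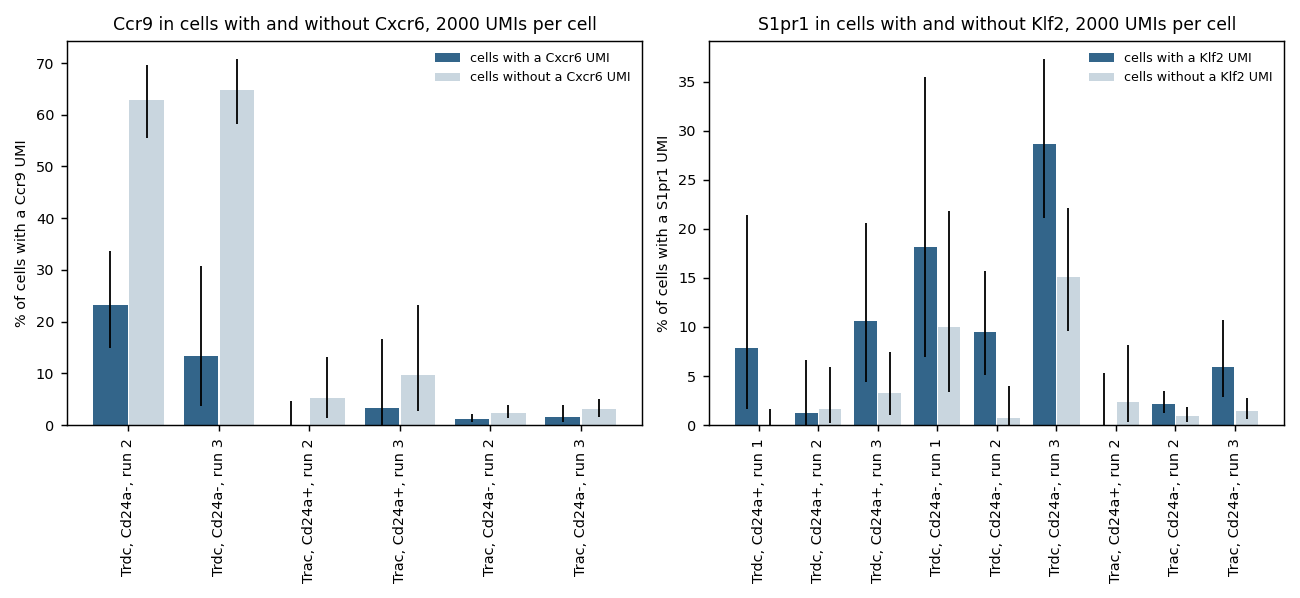
Share of cells with a Ccr9 UMI among cells with and without a Cxcr6 UMI (left), and of cells with an S1pr1 UMI among cells with and without a Klf2 UMI (right), in the Trdc and Trac gates. Cells were thinned to 2000 UMIs, and bars have exact 95% binomial intervals. Ccr9 is 62.8% and 64.7% in Trdc Cd24a-negative cells without Cxcr6, and 23.3% and 13.3% in those with it.

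S1pr1 was compared between cells with and without a UMI of Klf2, its known regulator. The share with S1pr1 was higher in the cells with Klf2 in 12 of 16 gate and run combinations and lower in 2, and in 3 of the 12 the intervals did not overlap. These were the Trdc Cd24a-negative gate of the second run (9.49% against 0.730%), and the Trac Cd24a-negative gate (5.95% against 1.42%) and DN2b (4.69% against 0.322%) of the third. Few cells carry these shares, since 14, 18 and 6 cells of these gates had an S1pr1 UMI. In DN2b, 64 of 997 cells had a Klf2 UMI. For Ccr7 the intervals were apart in 1 of 16 combinations and for Cxcr3 in 0. At this depth a cell that expresses a gene can give no UMI of it, and S1pr1 was found in at most 28.7% of the cells of either kind.

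Ccr9, Cxcr3 and Cxcr6 also varied with subset genes within the Trdc and Trac gates. Cells with a UMI of Sox13, a factor of IL-17-producing γδ cells, had more Ccr9 in the Trdc Cd24a-negative gate, at 1014, 1210 and 1273 CPM in the first, the second and the third run against 206, 660 and 428 CPM in cells without. The same held in the Trdc Cd24a-positive gate, at 401, 1498 and 1196 CPM against 85.9, 264 and 214 CPM. No interval of cells with Sox13 overlapped that of cells without in any run.

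In the Trac Cd24a-negative gate, the few cells with a Sox13 UMI (21 and 44) had Ccr9 at 301 and 237 CPM in the second and the third run, and the others had 15.8 and 7.43 CPM. Nkg7, a gene of cytotoxic granules, went with Cxcr3 in that gate. Cxcr3 was at 199 and 175 CPM in cells with an Nkg7 UMI and at 15.8 and 13.6 CPM in those without.

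Cxcr6 went the other way. In Trac Cd24a-negative cells it was at 496 and 294 CPM with Nkg7 and at 738 and 370 CPM without, and in Trdc Cd24a-negative cells of the second and the third run at 120 and 53.9 CPM with Nkg7 and at 656 and 199 CPM without. In the first run the Cxcr6 intervals of the Trdc Cd24a-negative gate overlapped. These splits were taken within a library and have no test. Splits by Il2rb and by Icos were also made and are not reported here.

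Ccr9 and Klf2 made up a smaller part of the UMIs of dividing cells. These levels are CPM, scaled to the total UMIs of the cells, and UMIs per cell were not compared. Cycling cells had a UMI of at least 2 of Mki67, Top2a, Cdk1 and Birc5, and resting cells had none, a split made after the data had been seen. Ccr9 was lower in cycling cells in 14 of 15 gate and run combinations, and in 13 of these the intervals did not overlap. In DN3 it was at 33.4, 27.7 and 51.4 CPM in cycling cells and at 149, 61.8 and 189 CPM in resting cells of the first, the second and the third run. In the Trdc Cd24a-positive gate it was at 72.0, 93.9 and 378 CPM against 304, 746 and 1229 CPM.

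Klf2 was lower in cycling cells in 12 of 15 combinations, in 10 of them with intervals apart, and the third run was the exception in part. In DN2b, Klf2 was at 9.85 and 149 CPM in cycling and at 123.3 and 228 CPM in resting cells of the first and the second run, but at 46.3 and 36.5 CPM with overlapping intervals in the third. The cycling share moved with the gates as well. It was 35.8%, 38.6% and 49.3% in DN2a of the first, the second and the third run, and 44.9%, 52.1% and 49.6% in DN2b. In DN3 it was 28.5%, 35.8% and 19.0%, and in the Trdc Cd24a-positive gate 48.8%, 21.3% and 24.1%. DN4 of the first run had 82.4%. Among resting cells of the first run, Klf2 was at 88.0 CPM (66.6 to 114) in DN2a and 123.3 CPM (89.2 to 166) in DN2b, with overlapping intervals. In resting cells of the other runs, and in cycling cells of each run, Klf2 was lower in each later gate from DN2a to DN3. The part of cycling in the differences between gates was not tested.

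For Ccr7 and Cxcr4, no combination had intervals apart between cycling and resting cells. Cxcr6 was lower in cycling cells in 13 of 15, with 5 apart, S1pr1 in 10, with 2 apart and 1 apart in the other direction, and Cxcr3 in 8, with 2 apart.

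**Figure D4:**
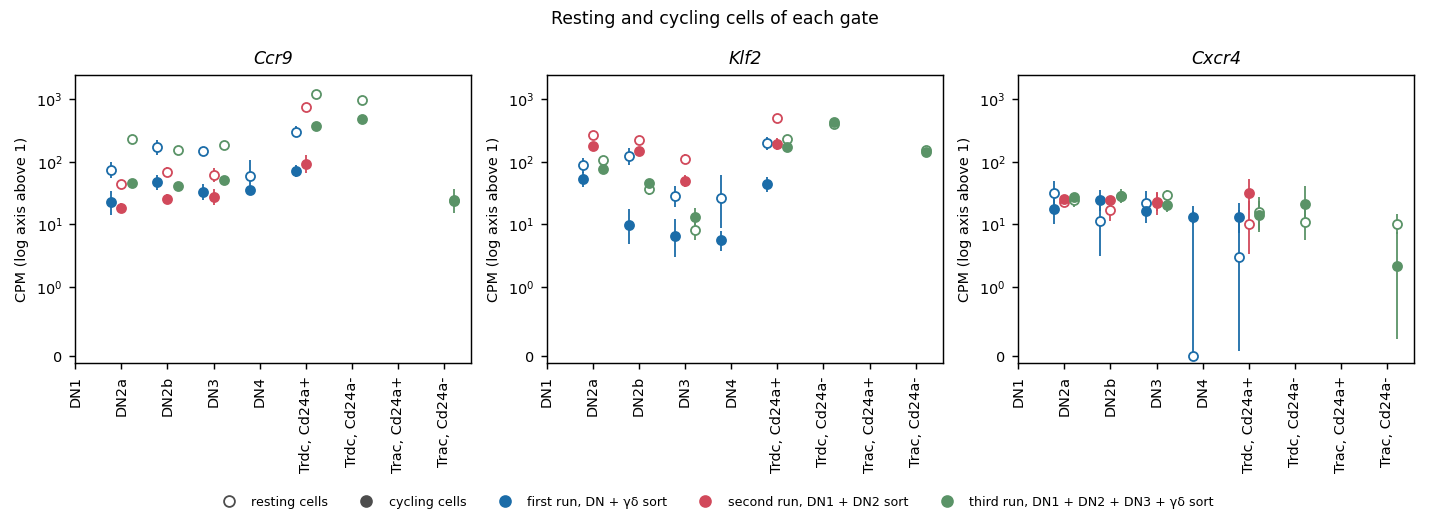
Levels of Ccr9, Klf2 and Cxcr4 (CPM, log axis above 1) in resting cells (open points) and cycling cells (filled points) of each gate with at least 20 cells of both kinds, by run, with exact Poisson 95% intervals. Ccr9 lies lower in cycling cells in 14 of 15 pairs, while no Cxcr4 pair has intervals apart.

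Over the 21 sums of a run and a gate, and after the mean of each run was removed, Ccr7 and S1pr1 had the most similar profiles among the members (r = 0.90), followed by Cxcr3 and Cxcr6 (r = 0.89). Cxcr4 ran against all members but Ccr9 (r from -0.78 to -0.51). The sums share libraries, so these are descriptions. Of all genes, the closest to Ccr9 was Sox13 (r = 0.94), followed by Cd247 and Il21r (both 0.92). Those closest to Cxcr6 were Ly6g5b (0.99), Lta and Nt5e (both 0.98), and to Cxcr3 F2rl1 (0.99), Ifitm10 and Lgals3 (both 0.98). For the other members they were Tmsb10, Tmem173 and Tes for Klf2 (0.95, 0.95 and 0.94), Gsn, Myo6 and Camk2d for Ccr7 (0.94, 0.94 and 0.93), Acp5, Usp12 and Grap for S1pr1 (0.95, 0.94 and 0.94), and Dgkg, Gfi1 and Ssbp3 for Cxcr4 (0.95, 0.95 and 0.94).

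A list of 60 other genes of migration, of which 52 were tested, was read beside the members. In DN2b against DN2a, 1 of 52 fell, and it was Itgb7, the β7 integrin chain (-0.95 ± 0.19, adjusted p = 0.0268). In DN3 against DN2b, 1 rose, the receptor S1pr2 (0.79 ± 0.20, adjusted p = 0.0318), and 7 fell, among them Arrb2, which shuts off receptors (-1.04 ± 0.20), and the lipid receptor Gpr18 (-0.90 ± 0.20). The share of all genes called was 0.401% and 4.27% in these comparisons. The medians of the list were -0.12 and -0.08, near the medians of 0.00 and 0.01 over all genes.

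From DN3 to the Trdc Cd24a-positive gate, 24 of 52 rose and 3 fell, where 16.4% of all genes were called, with a list median of 0.55 against 0.01 over all genes. The largest were the chemokine receptors Ccr10 (4.38 ± 0.77, adjusted p = 0.000452) and Cx3cr1 (4.22 ± 0.58, adjusted p = 3.73e-05). Few UMIs in DN3 carry both values, since Ccr10 was at 0.378, 0.324 and 0.301 CPM there and Cx3cr1 at 0.378, 0.649 and 0.702 CPM. The integrin chain Itga6 (-1.36 ± 0.26) and the factor Klf3 (-0.52 ± 0.17) fell. Of the 7 genes for retention and receptor shut-off, 6 rose. In the Trdc Cd24a-negative gate against the Cd24a-positive gate, 22 were higher and 0 lower, where 15.9% of all genes were called. The list median was 0.56 against 0.02. The list was led by the chemokine receptor Ccr2 (2.82 ± 0.50, adjusted p = 0.00121) and Itgae, the αE integrin chain (2.22 ± 0.23, adjusted p = 1.9e-05).

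Between the Cd24a-negative Trac and Trdc gates, 11 of 52 were higher and 12 lower in the Trac gate, where 17.1% of all genes were called. The list median was 0.17 against 0.07. Itga4, the α4 integrin chain, was lower by a log2 fold change of -1.90 ± 0.25 (adjusted p = 2.23e-05). Cd44, which binds hyaluronan, was at 111 and 94.3 CPM against 74.1 and 29.5 CPM (1.45 ± 0.26, adjusted p = 0.000559).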

How the data were processed

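Thymocytes were captured with 10x 3′ kits and the reads were aligned by the authors to mm10 with Cell Ranger (version 4.0.0 in the header of the third run, not given for each of the others in the sources used here). The deposited values are whole UMI counts, 1 per gene and cell and not normalized, and sum to 39947415, 52797915 and 98533329 over the runs. A cell was kept if it had 500 to 5000 genes and no more than 7% of its counts from mitochondrial genes, limits the study states, and the numbers kept differ from those it lists. Their median was 5990, 4844 and 8507 UMIs. The runs shared 72, 1 and 0 cell barcodes (for the first and the second, the first and the third, and the second and the third). Doublets were not removed. Scrublet in scanpy 1.11.5 marked 0, 431 and 209 cells and so did not work in the first run, and the highest 8% of its scores were left out as an alternative.

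Counts were summed per run and gate with at least 20 cells (21 sums, 10 residual degrees of freedom) and tested in edgeR 4.0.16 (R 4.3.3, limma 3.58.1) with TMM, filterByExpr and the two-sided quasi-likelihood F test over 11234 genes, with the Benjamini-Hochberg adjustment and a threshold of 0.05. Genes used for gating were not tested, and a comparison needed both gates in at least 2 runs. The run was a block, since gates of a run come from 1 library. Differences between runs correlated across gates over genes, with a median r of 0.396, 0.755 and 0.781 for these pairs of runs and a lowest r of 0.199. DESeq2 1.42.0 was an alternative.

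Intervals are exact Poisson for CPM and Clopper-Pearson for shares, at 95%, and cover counting error only. Likeness used log2(CPM + 5). All 7 members are reported in every comparison, and from the list of 60 genes the 2 called genes with the largest changes in each direction that moved the same way in every run, and the 3 genes with the highest Pearson r for each member. Not every gene named by this rule is reported here. The members and lists were chosen with earlier results of these data known, and the splits by Sox13, Nkg7 and cycling genes and the shares of pairs other than those with Klf2 were chosen after seeing the data.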

Additional observations from a re-analysis of the deposited data

How the results depend on the processing

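Of 420 alternative fold changes of the members, 372 kept their direction and their side of the threshold, 26 lost and 5 gained a call, and 17 changed sign, all of them in members that were not called. Of the alternative levels, 558 stayed within the Poisson interval and 156 did not, 31 of them without the highest doublet scores. In thinned cells, more levels moved (94) than stayed (46). Thinning came before gating there and left 39, 111 and 85 cells in the DN2b gate, in place of 236, 868 and 997. The stage gates thus depend on depth. The block for the run moved the most calls. With no replicate block, 0, 0, 0, 2 and 3 members were called for DN2b against DN2a, DN3 against DN2b, the Trdc gates, Trac against Trdc, and Trdc Cd24a-positive against DN3, and over all genes 0, 3, 0, 209 and 225 in place of 45, 480, 1786, 1925 and 1838, and Cxcr6 in DN3 against DN2b was -0.040. When each run was left out in turn, the members called ranged from 0 to 0, 0 to 1, 4 to 4, 3 to 6 and 3 to 6 in that order, and all genes called from 0 to 49, 57 to 543, 300 to 1071, 467 to 1778 and 278 to 1799. Without the second or without the third run, the Trac gate of the Trac comparison has 1 sum, which is assumed to vary like the others. The fold changes that changed sign so ranged from -0.016 to 0.15 (Cxcr4), -0.99 to 0.29 (Ccr7) and -0.28 to 0.49 (Cxcr3) in DN2b against DN2a, from -0.060 to 0.51 (Cxcr6) in DN3 against DN2b, and from -0.96 to 0.30 (Cxcr3) in Trdc Cd24a-positive against DN3. With no filter on low counts, 1 member was called in DN2b against DN2a. In thinned cells, the values that changed sign were -0.38 (Cxcr4), 1.39 (Ccr7) and 0.87 (Cxcr3) in DN2b against DN2a, 0.52 (Cxcr4), -0.18 (Cxcr3) and -0.42 (Cxcr6) in DN3 against DN2b, and 0.63 (Cxcr3) in Trdc Cd24a-positive against DN3. Without the highest doublet scores they were -0.28 (S1pr1) and 0.47 (Cxcr3) in DN2b against DN2a and -0.32 (Cxcr6) in DN3 against DN2b, and by DESeq2 0.15 (Cxcr3) in DN2b against DN2a. The other settings called 25 to 199, 30 to 837, 231 to 2554, 1358 to 2029 and 645 to 1987 genes. The causes were not tested. Low counts of Cxcr3, Ccr7 and S1pr1 in the DN gates limit what could be detected there.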

Other observations

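The Trac Cd24a-positive gate entered no comparison. It held 153 cells in the second run and 72 in the third, and the summed level of the B and myeloid genes Cd79a, Ms4a1, Cd74 and Lyz2 was 253 and 135 CPM there against 6.28 and 9.74 CPM in the Trac Cd24a-negative gate, and their part in the levels was not tested. Ccr9 stood at 50.9 CPM (34.3 to 72.7) and 71.3 CPM (51.8 to 95.7) in the Cd24a-positive gate, with intervals above those of the Cd24a-negative gate in both runs, but 30 and 44 UMIs made up these levels, and the shares of thinned cells with a Ccr9 UMI, 2.61% (0.717 to 6.56) and 6.94% (2.29 to 15.5), overlapped those of the Cd24a-negative gate, 1.75% (1.15 to 2.55) and 2.47% (1.47 to 3.87). Of the Cd24a-positive cells, 143 and 66 had a single Cd24a UMI. Cxcr3 was lower, at 84.8 and 81.0 CPM, and Cxcr6 was at 438 and 303 CPM.

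In the B cells of the third run, Klf2 stood at 550 CPM (522 to 579), Ccr7 at 81.4 CPM (70.9 to 93.0), Cxcr4 at 48.8 CPM (40.7 to 57.9) and S1pr1 at 42.4 CPM (34.9 to 51.0). Ccr7 and Cxcr4 were higher in these cells than in each T lineage gate of that run, with intervals apart from that of the highest gate.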
